A study of Mus musculus with 8 samples.

Results

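Tinag, Gabrp, Fam83e and Cela1 are 4 genes best known from tissues other than the liver, and their microarray signal was far higher in livers of AKP::Keap1 mice than in livers of AKP mice. The genes were selected on their large fitted difference in this same comparison, AKP::Keap1 minus AKP, so their genotype differences are given as a description, with no test. Each gene is represented by 1 probe, named through its RefSeq accession, and the 4 probes are 4 of the 25991 named probes used, which cover 19714 gene symbols. All 4 genes passed the filter on dim probes, as did 15830 genes in all, but Fam83e passed it only through the AKP::Keap1 arrays and Tinag through these and 1 AKP array. Not all 4 were switched on from nothing: Gabrp and Cela1 were well above background on all 4 AKP arrays. Cela1 thus started from a clearly measurable level, but Gabrp from a level near the background limit. The signal of Tinag and Fam83e in AKP livers was below that limit or, on 1 array for Tinag, just above it.

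The series holds whole livers of 8 mice, with 2 AKP males, 2 AKP females, 2 AKP::Keap1 males and 2 AKP::Keap1 females, each on 1 array. AKP and AKP::Keap1 mice share a liver-specific activated oncogene and a liver-specific mutant p53 (R172H), and AKP::Keap1 mice lack Keap1 in the liver in addition. No group without the oncogene and mutant p53 is among these samples. The labels give neither the ages of the mice nor the promoter behind the liver-specific expression, and all host cell types of the liver are in the RNA. In bulk tissue, more cells of a type and more RNA per cell cannot be told apart.

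Keap1 is the adaptor that marks the transcription factor Nrf2 for degradation, and Nrf2 in turn binds antioxidant response elements in DNA and drives genes of glutathione metabolism and detoxification. Tinag encodes tubulointerstitial nephritis antigen, a secreted glycoprotein of basement membranes best known from the kidney tubule, with a domain that resembles cathepsin B. Cela1 encodes a chymotrypsin-like elastase, a digestive protease secreted by acinar cells of the pancreas. Gabrp encodes the pi subunit of the GABA-A receptor, a chloride channel subunit found mainly in epithelia outside the brain. Fam83e belongs to the FAM83 family, whose members share a domain that binds casein kinase 1.

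Between 65.7% and 70.7% of the spots of an array were well above background, and no spot was saturated. Keap1 itself lay between 1.68 and 2.14 on the 4 AKP arrays and between -1.40 and -0.52 on the 4 AKP::Keap1 arrays, in log2 units relative to the 75th percentile of the array. The hepatocyte markers on the arrays were bright in both genotypes, and albumin, Alb, averaged 8.63 in AKP and 8.32 in AKP::Keap1 livers. Slide and group cannot be told apart, because the 2 arrays of a group share a slide with no other group, and scan day changes with sex. The labels do not say how the animals of a group relate, so p-values measure only the spread between these samples.

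The sequence before each gene's start is shown for each, since the 4 genes were chosen for large rises in the same comparison and their promoters can be set side by side. All 4 genes matched the RefSeq promoter table of assembly GRCm38.p6, and the 250 bases before the start are printed 5′ to 3′ on the strand of the gene, with motif matches in capitals. They lie at chr9:77045782-77046031 (minus strand) for Tinag, chr15:100687921-100688170 (minus strand) for Cela1, chr11:33578958-33579207 (minus strand) for Gabrp and chr7:45720970-45721219 (plus strand) for Fam83e. The array files name a different build, mm9, from which no coordinates are given.
Tinag: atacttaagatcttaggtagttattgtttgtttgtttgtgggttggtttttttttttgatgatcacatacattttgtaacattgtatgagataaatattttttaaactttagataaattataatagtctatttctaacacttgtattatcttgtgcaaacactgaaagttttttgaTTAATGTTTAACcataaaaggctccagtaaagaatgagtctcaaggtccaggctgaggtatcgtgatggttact
Cela1: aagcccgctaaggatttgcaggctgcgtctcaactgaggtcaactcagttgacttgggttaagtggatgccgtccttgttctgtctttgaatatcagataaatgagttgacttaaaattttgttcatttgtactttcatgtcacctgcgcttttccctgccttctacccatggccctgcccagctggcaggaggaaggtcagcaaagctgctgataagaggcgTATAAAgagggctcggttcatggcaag
Gabrp: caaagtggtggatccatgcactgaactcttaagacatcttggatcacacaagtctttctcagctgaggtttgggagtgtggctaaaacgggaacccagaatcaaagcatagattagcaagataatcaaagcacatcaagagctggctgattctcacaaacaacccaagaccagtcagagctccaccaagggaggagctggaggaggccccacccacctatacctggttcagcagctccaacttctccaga
Fam83e: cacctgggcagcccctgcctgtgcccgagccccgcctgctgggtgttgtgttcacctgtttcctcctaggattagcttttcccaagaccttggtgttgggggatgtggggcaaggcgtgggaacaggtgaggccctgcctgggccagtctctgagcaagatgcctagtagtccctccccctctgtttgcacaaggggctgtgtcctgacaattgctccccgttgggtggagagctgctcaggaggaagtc
Both strands were searched for the antioxidant response element core TGACNNNGC, the AP-1 site TGANTCA, the TATA box TATAAA, the CCAAT box CCAAT and the site of the liver and kidney factor HNF1 (GTTAA and ATTAA with any 2 bases between them). None of the 4 windows holds the antioxidant response element core, which 10.2% of all 32851 promoter windows of this length hold. None holds the AP-1 site (6.75% of all windows) or the CCAAT box (33.8%) either. Cela1 has a TATA box from 27 to 22 bases before its start, as 12.4% of all windows do at any position. Tinag has an HNF1 site on the opposite strand, printed as TTAATGTTTAAC, from 74 to 63 bases before its start. This motif was added to the search after the sequences had been read, and 47 of all windows (0.143%) hold it. The Tinag window is poor in G and C, at 28.8%, against a median of 52.4% over all windows, whereas Gabrp has 49.2%, Cela1 48% and Fam83e 61.2%. A match describes letters only, and a motif farther from the start would not be seen in these windows.

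Tinag, the basement membrane protein, went from near or below the detection limit to a clear signal. Its processed signal, in units of array brightness, was 3.84 and 2.66 in the AKP males and 13.3 and 4.21 in the AKP females. In AKP::Keap1 livers it was 1138 and 830 in the males and 2483 and 2812 in the females. Of the AKP arrays only the first female was well above background, with 13.3 against a floor of 8.73, the lowest signal that counted as well above background on that array. The genotypes did not overlap: the lowest AKP::Keap1 array was 46.3-fold above the highest AKP array after scaling to the 75th percentile. In males, where neither AKP array was above background, the level was at least 61.0-fold higher in AKP::Keap1. Such bounds set the mean of the AKP::Keap1 arrays against AKP values raised to the floor of their array. They apply to the processed signal only. After another background correction the fitted difference over both sexes was 4.31 in log2 units. In females the fitted difference was 8.35 in log2 units, which includes the AKP array below background.

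Cela1, the elastase, was measurable in every liver. Its processed signal was 56.8 and 60.6 in the AKP males and 70.0 and 109 in the AKP females, and 1283 and 1374 in the AKP::Keap1 males and 559 and 1174 in the AKP::Keap1 females. On the scaled log2 axis the AKP males averaged -4.17 ± 0.09 (SD, n = 2) and the AKP females -3.60 ± 0.50, against -0.17 ± 0.12 for AKP::Keap1 males and -0.50 ± 0.55 for AKP::Keap1 females. The genotypes did not overlap, with a 5.12-fold gap between the nearest arrays of both. The fitted difference of AKP::Keap1 minus AKP was 3.55 ± 0.23 (SE), or 11.7-fold, with 15.9-fold in males and 8.58-fold in females. Both sexes thus showed it, and the AKP female with the highest signal (109) was still at less than the lowest AKP::Keap1 array (559).

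Gabrp, the receptor subunit, was above background in all 8 livers and low in the 4 AKP livers. Its processed signal was 13.7 and 19.8 in the AKP males and 16.0 and 12.2 in the AKP females. The floors of these arrays were 9.95 and 12.6 in the males and 8.73 and 8.79 in the females, so the AKP values lay near them. It was 3872 and 4374 in the AKP::Keap1 males, and 855 and 3537 in the AKP::Keap1 females. Scaled log2 levels averaged -6.00 ± 0.22 (SD, n = 2) for AKP males, -6.24 ± 0.23 for AKP females, 1.46 ± 0.17 for AKP::Keap1 males and 0.61 ± 1.24 for AKP::Keap1 females. The nearest arrays of the genotypes were 47.6-fold apart. The fitted difference was 7.15 ± 0.37 (SE), or 142-fold, with 176-fold in males and 115-fold in females. These sizes rest on the low AKP values, and the difference was 4.64 in log2 units after another background correction. The first AKP::Keap1 female stood below the other 3 AKP::Keap1 arrays.

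Fam83e was not well above background on any AKP array and well above it on all AKP::Keap1 arrays. Its processed signal lay between 3.28 and 3.78 on the 4 AKP arrays, where the floors lay between 8.73 and 12.6. It was 561 and 671 in the AKP::Keap1 males and 318 and 1167 in the AKP::Keap1 females. With AKP values raised to the floor, the level was at least 49.7-fold higher in AKP::Keap1 livers, at least 38.5-fold in males and at least 64.2-fold in females. These bounds apply to the processed signal only. After another background correction the fitted difference was 3.09 in log2 units. This pattern, dim on all 4 AKP arrays and well above background on all 4 AKP::Keap1 arrays, was seen for 116 of 15830 genes (0.733%), and the reverse pattern for 6.

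**Figure D1:**
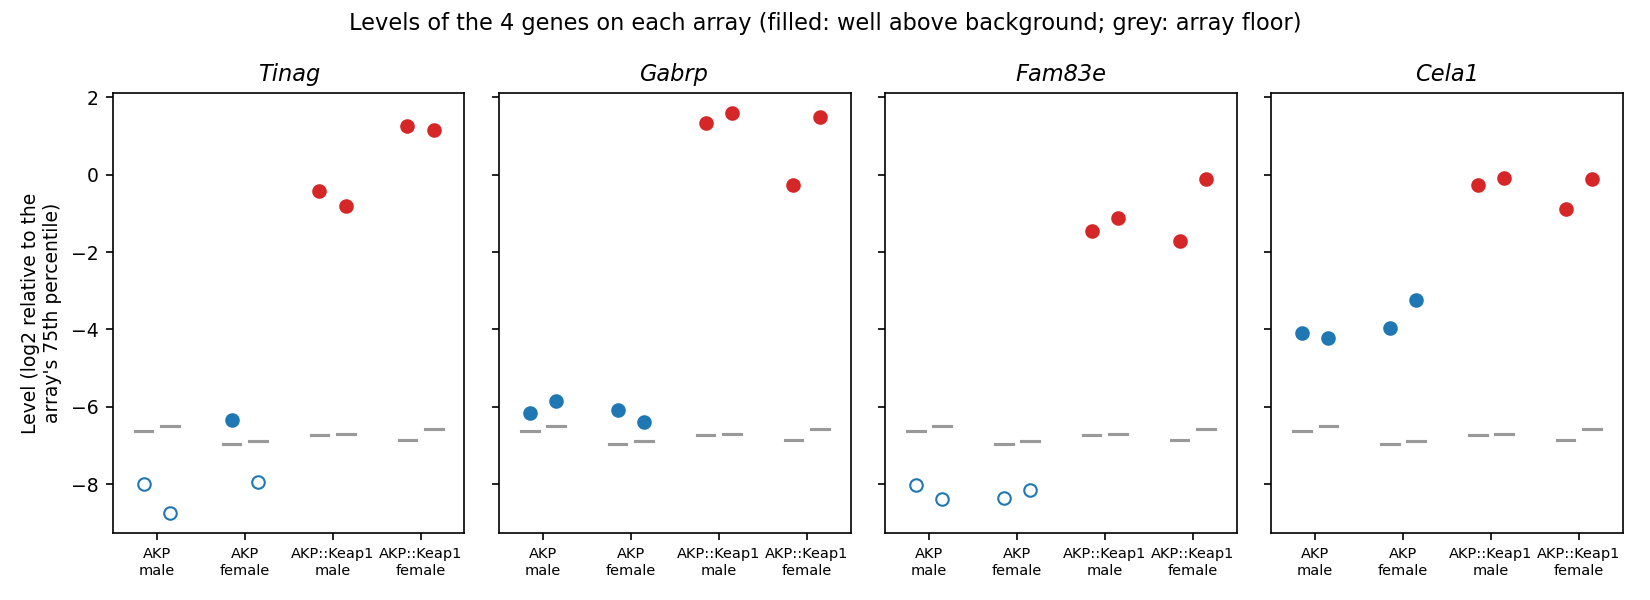
Level of Tinag, Gabrp, Fam83e and Cela1 on each of the 8 arrays, in log2 units relative to the 75th percentile of the array. Each point is 1 mouse, filled where the probe was well above background, and grey bars mark the floor of that array. Every AKP::Keap1 point lies above every AKP point, and the first AKP::Keap1 female lies lowest of its genotype for Gabrp, Fam83e and Cela1 but not for Tinag.

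By fitted genotype difference Tinag stood at place 5, Gabrp at place 9, Fam83e at place 10 and Cela1 at place 101 of 15830 genes, where places of genes below background in AKP are not measured ranks. Slc7a11 (8.17) stood just above Tinag and Gpx2 (7.76) just below, Tff2 (7.45) stood above Gabrp, Gm10639 (7.08) below Fam83e, and Cela1 stood between the matrix protease Mmp7 (3.56) and Col6a5 (3.55). Every AKP::Keap1 array was above every AKP array for 15.5% of all genes, and in limma 39.1% of all genes were called by genotype, 21.8% higher and 17.2% lower, at a Benjamini-Hochberg adjusted p below 0.05. The rule used this contrast, so nothing is read from the place of the 4 genes against these shares. The split of calls, 3455 higher and 2727 lower, became 2372 and 6370 when arrays were set to a common median, and 5704 and 645 with unscaled values.

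Within AKP::Keap1 livers the sexes can be compared without using the picked contrast. Of the 4 genes none was called between females and males, against 3.8% of all genes called, 1.18% higher and 2.62% lower in females. Tinag had the widest gap, with both females (1.26 and 1.15 on the scaled log2 scale) above both males (-0.43 and -0.81). Its difference of 1.83 ± 0.52 (SE), a 3.56-fold higher mean in females, had an adjusted p of 0.12. That spread includes AKP arrays below background. Leaving out the first or the second AKP female kept the difference at 1.83, with an SE of 0.29. The adjusted p was 0.0069 once values were raised to the array floor and 0.00081 after another background correction. Both settings replace or compress the AKP values below background, and the SE fell to 0.21 and 0.17. These p-values thus do not measure replicate spread alone.

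For the other 3 genes the males and females overlapped. The female minus male difference was -0.86 ± 0.53 for Gabrp (adjusted p = 0.40), 0.38 ± 0.49 for Fam83e (adjusted p = 0.70) and -0.33 ± 0.32 for Cela1 (adjusted p = 0.61). Leaving out the first AKP::Keap1 female turned Gabrp to 0.025 and Cela1 to 0.065, and leaving out the second gave -1.74 for Gabrp (adjusted p = 0.038) and -0.42 for Fam83e. Fam83e was at -0.010 with unscaled values. Slide and sex cannot be told apart in these differences.

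In levels, the 4 groups fell in an order that differed between the genes. For Tinag the AKP males were below measurement, the AKP females had 1 array above background, and AKP::Keap1 males and then AKP::Keap1 females followed without overlap. For Gabrp and Cela1 the AKP::Keap1 males had the highest mean and for Fam83e the AKP::Keap1 females, but in all 3 cases the arrays of the AKP::Keap1 sexes overlapped. The AKP sexes overlapped for Gabrp, did not for Cela1 (females higher), and have no order for Fam83e.

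Whether the genotype difference itself depended on sex was fitted as an interaction, in which the male difference is subtracted from the female one. Fam83e has no measured AKP value and so no interaction to test. None of the other 3 genes was called, against 1.72% of all genes (0.411% positive and 1.31% negative). It was -0.62 ± 0.75 for Gabrp (SE, adjusted p = 0.66) and -0.89 ± 0.45 for Cela1 (adjusted p = 0.29), both measured in every liver. For Tinag, measured on 1 of 4 AKP arrays, the fit gave 0.61 ± 0.74 (adjusted p = 0.66). With values raised to the array floor Tinag had an interaction of 1.89 (adjusted p = 0.039), 1.95 (adjusted p = 0.011) after another background correction, and -0.19 without the second AKP female. The first 2 of these settings replace or compress AKP values below background, and the SE fell to 0.30 and 0.25. The male difference of Tinag was not measured, so these p-values cannot decide whether it depended on sex. The interaction of Gabrp was 0.26 without the first AKP::Keap1 female.

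The livers of the 2 AKP::Keap1 females were not alike in these genes. The second female was above the first by 1.76 for Gabrp (3.39-fold), 1.59 for Fam83e and 0.78 for Cela1 (1.72-fold) in log2 units. The median gap between these arrays over all genes, without sign, was 0.21, and 99.0%, 98.4% and 90.6% of genes had a smaller gap than Gabrp, Fam83e and Cela1. Tinag went the other way by a small step, -0.11, and 28.1% of genes had a smaller gap. Between the AKP::Keap1 males the 4 genes differed by -0.39 to 0.33.

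Other gene lists moved between these same females. Of 16 measured bile duct markers, 13 were higher in the second female, with a median of 0.48, and so were 10 of 13 intestinal epithelium markers, with a median of 1.60. Of 10 hepatocyte markers 0 were higher there, with a median of -0.38. Over all genes 44.4% were higher in the second female, with a median of -0.04. Among the elastases and chymotrypsins other than Cela1, 0 of 4 were higher in the second female (median -0.45). The part of these markers in the values of the 4 genes was not tested.

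**Figure D2:**
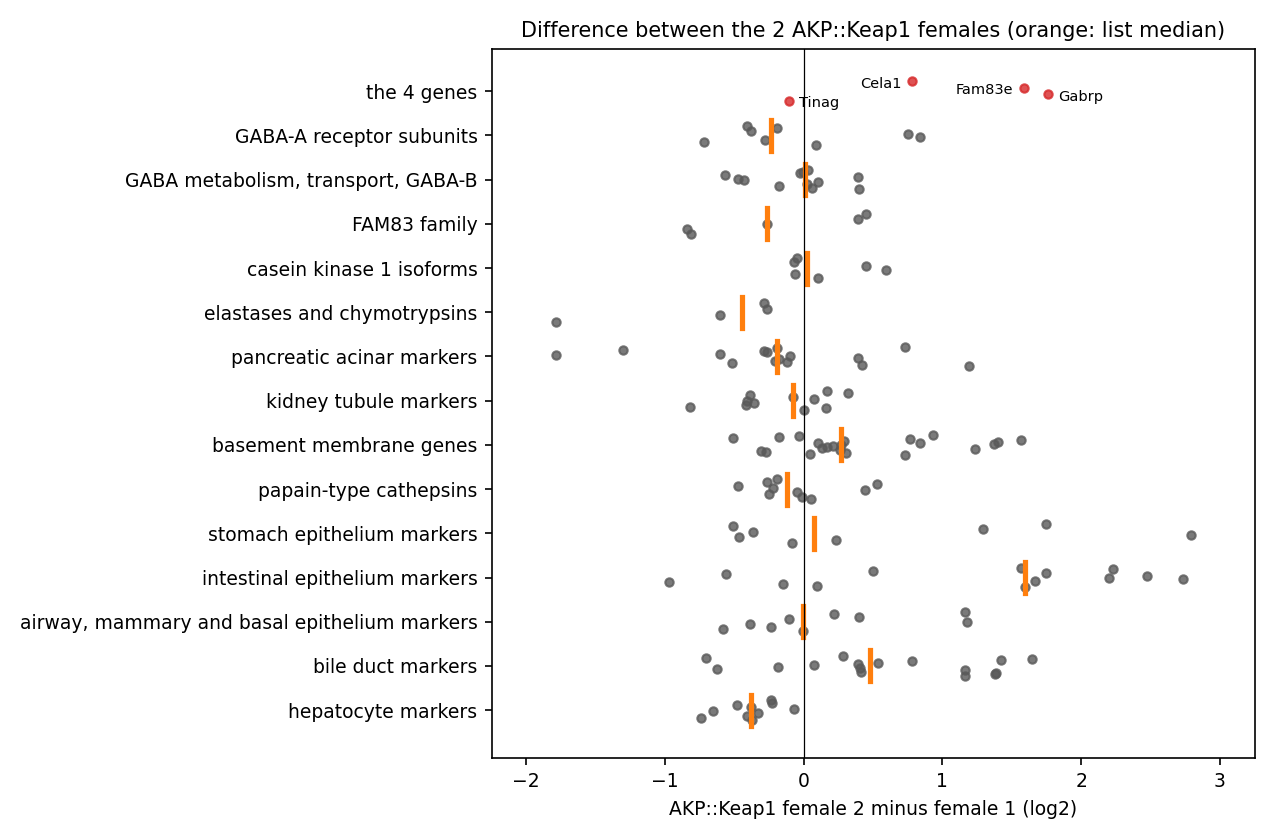
Difference of AKP::Keap1 female 2 minus AKP::Keap1 female 1 in log2 units, for the 4 genes (red) and for each measured gene of the lists (grey), with the list median as an orange bar. Gabrp, Fam83e and Cela1 lie to the right with most intestinal and bile duct markers, Tinag lies near 0, and all 10 hepatocyte markers lie to the left.

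The relatives and pathways of the 4 genes were described by lists, whose counts of genes that rose or fell by genotype stand against 21.8% and 17.2% of all genes. Tinag belongs with basement membrane proteins, and of 22 such genes 12 rose by genotype and 0 fell, with a median difference of 0.54 against -0.00084 over all genes (8 rose with the slide as a random block and 6 with arrays set to a common median), beside 21.8% of all genes that rose. Among them were the laminin chain Lamb3 (2.93 ± 0.30, adjusted p = 0.0017) and the collagen IV chain Col4a1 (0.74 ± 0.11, adjusted p = 0.0040). Tinagl1, the relative of Tinag and named here after its values were seen, had 0.15 ± 0.17 (adjusted p = 0.49, and -0.092 with arrays set to a common median). Of 10 papain-type cathepsins, the protease family that Tinag resembles, 3 rose and 3 fell (2 and 1 with the slide as a random block), near the 21.8% and 17.2% of all genes.

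Markers of the kidney tubule, where Tinag is best known, were measured as well. Of 18 listed genes 7 were kept out as dim and were not above background on any array, among them the transporters Slc12a1, Slc12a3 and Slc22a8. Of the 11 measured, 3 were called higher and 0 lower (1 higher with the slide as a random block), with a median of -0.03. Umod, 1 of the 3, was above background on 1 AKP array and 2 AKP::Keap1 arrays. It passed the filter through the AKP::Keap1 arrays, so no p is given for it. Its difference was 1.18 in males and 0.0015 in females. The share that rose is near the 21.8% of all genes. Pax8, a transcription factor of kidney and other epithelia, rose by 1.11 ± 0.11 (adjusted p = 0.0016), a call that normexp background correction ended (-0.058). The summed level of the list ranged from 13.6 to 134 times the 75th percentile in AKP and from 11.9 to 177 in AKP::Keap1 livers. This sum rests mainly on Aqp1 (means of 3.91 in AKP and 3.65 in AKP::Keap1 livers) and Pax2 (3.27 and 2.71). Pax2 was lower by 8.94 in AKP::Keap1 females than in AKP::Keap1 males. The next brightest measured gene, Aqp2, averaged -2.80 and -2.42, so the range does not describe the list as a whole.

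The other pancreatic enzymes are listed beside Cela1. Of 4 measured elastases and chymotrypsins 0 rose and 0 fell, with values of -0.44 ± 0.52 for Cela2a (adjusted p = 0.52), -0.31 ± 0.42 for Cela3a (adjusted p = 0.58), 0.03 ± 0.14 for Ctrb1 (adjusted p = 0.86) and 0.02 ± 0.18 for Ctrl (adjusted p = 0.94). At an adjusted p below 0.05, Cela2a (-0.55) and Cela3a (-0.47) were lower after normexp background correction. Scaling turned the sign of Cela3a, Ctrb1 and Ctrl, all near 0. Cela3b was above background on 1 array only.

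Of 15 measured acinar markers 2 rose and 2 fell (0 rose and 1 fell with the slide as a random block), against 21.8% and 17.2% of all genes. Bhlha15, a transcription factor of secretory cells (1.56 ± 0.33, adjusted p = 0.014), and colipase Clps (1.21 ± 0.20, adjusted p = 0.0063) rose over both sexes. The sexes were uneven, with differences of 2.30 in males and 0.11 in females for Clps, and 0.61 and 2.52 for Bhlha15. The amylase Amy2a5 (-0.79 ± 0.14, adjusted p = 0.0079, and -0.13 as the mean over its probes) fell. The other gene counted as lower, the lipase relative Pnliprp1, was above background on 2 AKP arrays and on no AKP::Keap1 array, and with values raised to the array floor it had -0.71 (adjusted p = 0.24). The defining acinar factor Ptf1a was not above background on any array, and trypsinogen Prss1 and lipase Pnlip were on 1 array each, in AKP. The summed level of the acinar list was 4.42 to 9.08 in AKP and at most 6.01 in AKP::Keap1 livers, and the genotypes overlapped. Amy2a5 was by far the brightest of that list, with means of 2.27 in AKP and 1.48 in AKP::Keap1 livers.

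GABA-A receptors are built of several subunits, so the others were set beside Gabrp. Of 18 other GABA-A subunits 8 were measured, 2 rose and 0 fell (0 and 0 with the slide as a random block), with a median of 0.41 that ran from -0.0093 to 0.72 over the alternatives. The share that rose is near the 21.8% of all genes. Gabrg3 rose over both sexes by 0.71 ± 0.10 (adjusted p = 0.0039, but 0.066 after normexp background correction), with a difference of 1.5 in males and -0.08 in females, and Gabrb2 rose by 0.90 ± 0.26 (adjusted p = 0.035, with -0.075 after normexp background correction). Another 8 subunits were not above background on any array. Of 12 measured genes of GABA synthesis, breakdown, transport and the GABA-B receptor, 3 rose and 1 fell (2 and 0 with the slide as a random block), near the shares of all genes. Gad1, which makes GABA, was below background in all 4 AKP livers and above it in all 4 AKP::Keap1 livers, at least 1.30-fold higher. It was kept only through the AKP::Keap1 arrays, so no p is given, and it lay at -0.16 after normexp background correction, whereas the GABA transaminase Abat had 0.03 ± 0.15 (adjusted p = 0.88).

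In the FAM83 family, 3 of 5 other measured members were called higher and 0 lower (2 and 0 with the slide as a random block, and 1 in all after normexp background correction), against 21.8% of all genes. Of the 3, Fam83d and Fam83a were kept only through the AKP::Keap1 arrays, so no p is given for them. Fam83d, a protein of the mitotic spindle, was below background on all AKP arrays and above it on all AKP::Keap1 arrays, at least 1.69-fold higher. Fam83a was above background on 3 AKP::Keap1 arrays and no AKP array, at least 1.95-fold higher. Fam83g, measured in every liver, rose by 0.61 ± 0.16 (adjusted p = 0.027, but 0.11 with arrays set to a common median and 0.062 with the slide as a random block). After normexp background correction Fam83d had -0.065 and Fam83a -0.10. Fam83b and Fam83c were not above background on any array. Of 6 listed casein kinase 1 isoforms, only Csnk1e was called (0.61 ± 0.14, adjusted p = 0.019), and it was not called with the slide as a random block.

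Markers of epithelia were measured beside the 4 genes, since these genes are known from epithelia outside the liver lobule. Of 13 intestinal markers 6 were called higher and 1 lower, against 21.8% and 17.2% of all genes, with a median of 1.66. Of the 6, 2 (Cdh17 and Phgr1) were kept only through the AKP::Keap1 arrays. The median depended on low signals: it was 0.75 with values raised to the array floor and 0.0068 after normexp background correction. The gut peptide Guca2b (5.39 ± 0.52, adjusted p = 0.0015) and the brush border protein Vil1 (3.05 ± 0.36, adjusted p = 0.0024) led, and the fatty acid binding protein Fabp2 fell by 0.72. The keratin Krt20, with a fitted difference of 4.47, was above background on 1 AKP array and on 4 AKP::Keap1 arrays. It passed the filter through the AKP::Keap1 arrays, so no p is given for it. Cdx2, the defining intestinal factor, was above background on 1 AKP array and no AKP::Keap1 array, and Cdx1 had -0.17 ± 0.12 (adjusted p = 0.30). The summed level was 19.6 to 47.1 in AKP and 16.1 to 20.2 in AKP::Keap1 livers. Fabp2 was by far the brightest of the list, with means of 4.41 in AKP and 3.69 in AKP::Keap1 livers. Guca2b (-6.29 and -0.90) and Vil1 (-3.49 and -0.43) lay far lower, so the sum does not follow the genes that rose.

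Of 8 stomach markers 2 were called higher and 0 lower (0 with the slide as a random block), near the 21.8% of all genes. They were Muc5ac and Anxa10, which was kept only through the AKP::Keap1 arrays, while the gastrokines Gkn1 and Gkn2 were not above background on any array. Of 9 airway, mammary and basal markers 5 were called higher and 0 lower (3 and 0 with the slide as a random block), against 21.8% of all genes. Krt17, kept only through the AKP::Keap1 arrays, was at least 5.17-fold higher. Krt5 (0.96 ± 0.11, adjusted p = 0.0024) and the cilia factor Foxj1 (3.40 ± 0.45, adjusted p = 0.0033) rose. The 4 measured genes not called were Trp63 (-0.26 ± 0.12, adjusted p = 0.14), Scgb1a1 (0.18), Sftpb (0.16) and Wap (-2.63). Elf5, Bpifa1, Sftpc and Csn2 were not above background on any array.

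Of 16 bile duct markers 11 were called higher and 0 lower, against 21.8% of all genes, with a median of 2.32. Ggt1 (at least 14.6-fold, kept only through the AKP::Keap1 arrays), Tspan8 (5.65 ± 0.37), Sox9 (2.42 ± 0.23) and Krt19 (3.30 ± 0.36) were among them. The summed level of the list went from 24.1 to 46.7 in AKP to 59.8 to 118 in AKP::Keap1 livers. Most of that rise was in 1 gene, Spp1, whose mean was 2.51 in AKP and 5.79 in AKP::Keap1 livers. Of 10 hepatocyte markers 0 rose and 5 fell, against 17.2% of all genes lower, with a median of -0.42. With the slide as a random block 2 fell, with unscaled values 2, after quantile normalization 3 and with a common array median 10. The median ran from -0.67 to -0.11 over the alternatives, and was -0.49 without the first AKP::Keap1 female. Cps1 of the urea cycle (-1.23 ± 0.20, adjusted p = 0.0061) and Pck1 of gluconeogenesis (-0.85 ± 0.17, adjusted p = 0.012) fell. The share of bile duct epithelium in the change of the 4 genes was not tested.

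**Figure D3:**
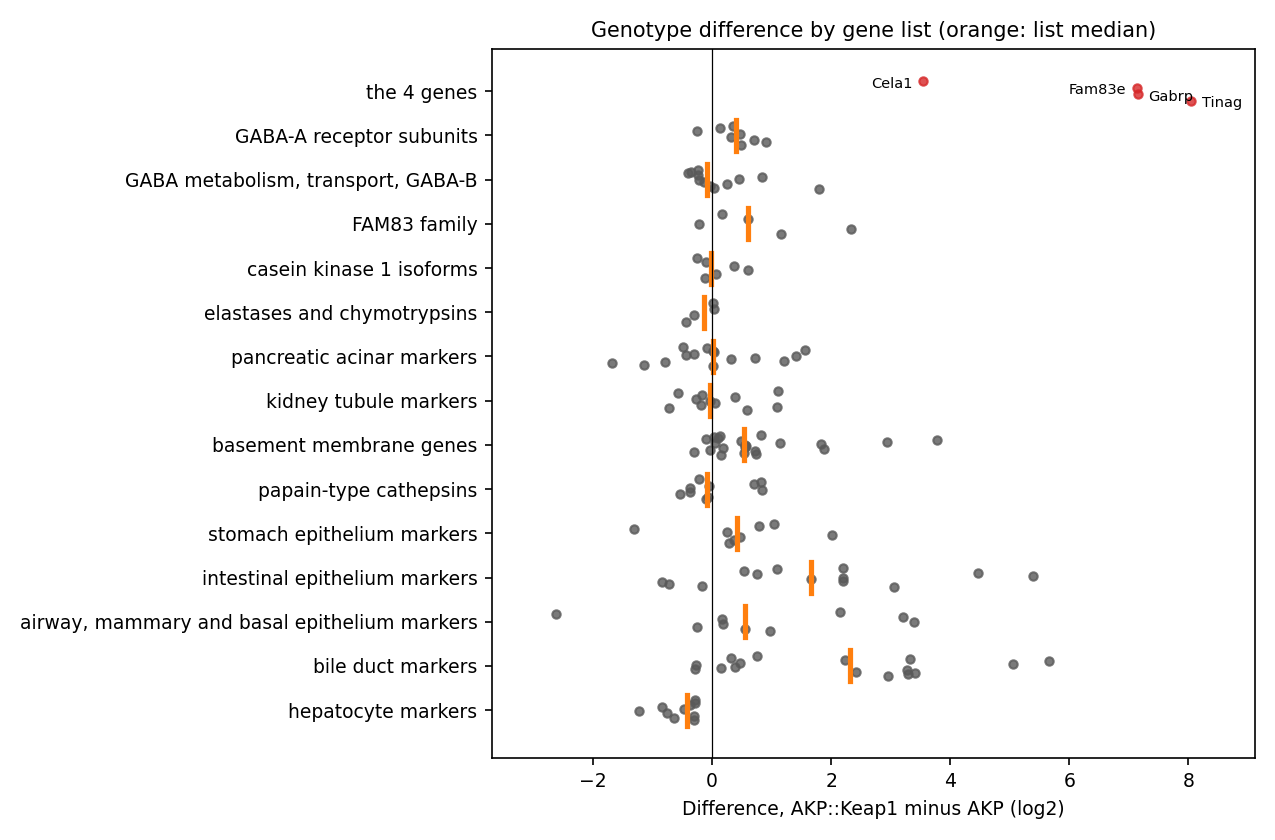
Difference of AKP::Keap1 minus AKP livers in log2 units, for the 4 genes (red) and for each measured gene of 14 lists (grey), with the list median as an orange bar. The 4 genes lie between 3.55 and 8.05, the other elastases and chymotrypsins between -0.44 and 0.03, and the largest list medians are those of the bile duct (2.32) and intestinal (1.66) markers. After normexp background correction these medians were 0.95 (bile duct) and 0.0068 (intestinal).

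The genes whose profile came nearest to each of the 4 differed. Likeness was the root mean square difference, in log2 units, between profiles over the 8 arrays, among 14222 named genes well above background on all AKP::Keap1 arrays. Signals below the floor of an array were first raised to it, and each profile was then centred on its own mean, so the genotype step of genes dim in AKP livers is smaller here than in the fit. Nearest to Tinag were the carbonyl reductase Cbr3 (0.53), the glutathione transferase Gsta2 (0.64), S100b (0.89), the glutathione peroxidase Gpx2 (0.91) and Gsta1 (0.94). Nearest to Gabrp were S100b (0.27), the trefoil peptide Tff2 (0.46), Gpx2 (0.52), the phosphatase Ptprr (0.61) and the cystine transporter Slc7a11 (0.64).

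Nearest to Fam83e were Degs2 (0.41), Eps8l3 (0.42), Slc7a11 (0.42), Rasgrf1 (0.44) and Guca2b (0.47), and nearest to Cela1 were Cited1 (0.23), Paqr5 (0.30), Siglecf (0.31), Ccl2 (0.32) and Scel (0.34). In the 5 genes nearest to Fam83e the second AKP::Keap1 female was above the first by 1.21 (Slc7a11) to 2.48 (Guca2b). Of the 5 nearest to Tinag, Gsta1 (-0.18) and Gsta2 (-0.21) were lower in the second female and Cbr3 (0.25), Gpx2 (0.51) and S100b (1.15) higher. The measure of likeness includes both of these arrays. Among the 4 genes themselves the differences ran from 0.88, between Gabrp and Fam83e, to 1.89, between Tinag and Cela1. Genes with a large genotype difference are near each other by this measure whatever else they do, and Gsta1 and Gsta2 have similar sequences that a probe may not separate.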

How the data were processed

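Signals of 8 arrays (Agilent mouse design 026655) were taken from the deposited scanner files. Per the labels' protocols, 500 ng of total RNA of whole liver was amplified and labelled with Cy3. The deposited values are linear intensity values, the processed signal after the software's background subtraction, from Feature Extraction 10.7.3.1 per the file headers and 10.1 per the submitters' processing notes. The deposited series matrix holds the same intensity values (355176 of 355176 equal within a relative tolerance of 1e-06).

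Control and outlier spots were left out, log2 signals of a probe's spots averaged, and each array's 75th percentile subtracted. Probes were named by unversioned RefSeq accession (GRCm38.p6 table). A gene was kept if a probe was well above background on at least 2 arrays, and its brightest probe was used. limma 3.58.1 (R 4.3.3) fitted 1 mean per group over 8 arrays, and a gene was called at a two-sided Benjamini-Hochberg adjusted p below 0.05. The fit was tested on simulated data. Normexp (offset 50) on median spot signals, the effects on the lists and the HNF1 motif were chosen after seeing the data.

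The 4 genes and the lists were chosen with earlier results of these data known. Named list genes are up to 3 per direction with the smallest adjusted p, any measured member of a list of at most 18 genes, and genes not well above background on every array. The nearest profiles are the first 5, without clone names. The number of arrays limits the precision.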

Additional observations from a re-analysis of the deposited data

Results flagged for a closer look

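Gabrp in the first AKP::Keap1 female, at -0.27 on the scaled log2 scale, stood apart from the other 3 AKP::Keap1 arrays: its gap to the nearest of them was 0.869 of the whole range of the 4 arrays. This is the 1 case among the 4 genes in both genotypes, and a gap of this kind appears by chance in about 1 of 20 groups. The same array was lowest of its genotype for Fam83e and Cela1. Without it the genotype difference of Gabrp was 7.59 in place of 7.15.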

How the results depend on the processing

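The genotype differences of the 4 genes kept their direction under every alternative that was run, and moved beyond the spread between replicates under those that change low signals. Normexp background correction, whose offset compresses low signals, gave 4.31 for Tinag, 4.64 for Gabrp, 3.09 for Fam83e and 2.73 for Cela1, and raising values to the array floor gave 6.88 for Tinag and 5.64 for Fam83e. Leaving out 1 array gave 7.65 to 8.44 for Tinag, 6.71 to 7.59 for Gabrp, 6.74 to 7.53 for Fam83e and 3.35 to 3.74 for Cela1. Genes called by genotype fell from 6182 to 3309 with the slide as a random block.

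Between the sexes of AKP::Keap1, unscaled values called 1692 genes in place of 601, and leaving out 1 array gave 182 to 530. Tinag became called at 1.76 (normexp) and 1.83 (array floor), and also at 1.83 without the first or the second AKP female. Leaving out 1 array gave 1.64 to 2.02 for Tinag, -1.74 to 0.025 for Gabrp, -0.42 to 1.17 for Fam83e (-0.010 with unscaled values) and -0.72 to 0.065 for Cela1. The interaction called 272 genes, and 165 after quantile normalization, 1189 after a shift to the array median, 459 unscaled, 118 without a filter, 541 with trend and robust settings, and 0 to 51 when 1 array was left out. In limma, 3 of these 8 fits called 0 genes (without the second AKP male, the first or the second AKP::Keap1 female), with 3296, 3035 and 3632 at an unadjusted p below 0.05. For Tinag the interaction became called at 1.95 (normexp) and 1.89 (array floor), settings that narrow the spread of AKP values below background. Leaving out 1 array gave -0.19 to 1.40 for Tinag, -1.50 to 0.26 for Gabrp and -0.36 to 1.23 for Fam83e, which has no measured AKP value.

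With the replicate block, fitted although replicate 2 minus replicate 1 correlated between groups only at -0.16 to 0.12 across genes, 5639 genes were called by genotype, 421 by sex and 59 in the interaction, and no call of the 4 genes changed. Among list genes, the sign turned for Gabrb2 (-0.075), Gad1 (-0.16), Fam83d (-0.065), Fam83a (-0.10), Pax8 (-0.058) and Ctrl (-0.17) under normexp, for Ctrl (-0.22 and -0.23) under quantile normalization and the median shift, for Ctrb1 (-0.21) and Tinagl1 (-0.092) under the median shift, and for Cela3a (0.0011) unscaled. Of the other alternatives of named list genes, 356 kept direction and call, 35 lost the call and 2 gained it. The cause was not tested. Normexp on mean spot signals was not run.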
